A study of Mus musculus with 6 samples.

Results

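In uveitis dataset 1, 13 of 138 T cell receptor (TCR) clonotypes were expanded, that is, seen in 2 or more cells, and these 13 clonotypes held 51 of the 176 cells with a paired TCR. The other 125 clonotypes were each seen in 1 cell. Both classes were defined by the number of cells per clonotype, so that this number is a description of the classes and not a result. The whole series held 970 cells with a paired TCR in 691 clonotypes. The cells of dataset 1 were CD4 T cells that bound a tetramer of the P2 peptide of interphotoreceptor retinoid-binding protein (IRBP) on the class II molecule I-Ab. They came from lymph nodes of Aire GW/+ Lyn-/- mice with uveitis at 9 wk of age, which carry 1 dominant negative copy of the autoimmune regulator gene Aire and lack the tyrosine kinase Lyn. All mice of the series had this genotype, those of the group without uveitis included. The nodes (eye-draining cervical, submandibular and axillary) were pooled over mice, 7 in one uveitis dataset and 8 in the other, without a statement of which was dataset 1, and 16 without uveitis. After magnetic enrichment, tetramer-binding cells were sorted as TCRβ+CD4+CD8- and negative for markers of B cells and myeloid cells.

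A T cell builds its TCRα chain by joining a V gene to a J gene and its TCRβ chain by joining V, D and J genes. Bases are lost and added at random at these joints, so the CDR3, the loop that spans them and meets the peptide, marks the descendants of 1 cell. When antigen drives a T cell to divide, its daughters carry the same rearrangements and appear as an expanded clonotype. Aire drives the display of retinal proteins such as IRBP in the thymus, where T cells that bind them are deleted or diverted, and T cells against IRBP attack the retina in uveitis.

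At the threshold, 7 clonotypes had 2 cells each and held 14 cells, next to the 125 clonotypes with 1 cell. The largest clonotypes had 12, 8, 7 and 4 cells, and another pair had 3 cells each. Each cell was counted once, with the productive TRA contig and the productive TRB contig that rested on the most unique molecular identifiers (UMIs, tags that mark single RNA molecules). The pool was 1 library, so cells and clonotypes are not replicates of uveitis, and no p-value is given for the classes within it. Intervals in parentheses are exact (Clopper-Pearson) 95% binomial intervals and cover counting error only. No cell of dataset 1 carried the invariant TRA of natural killer T cells (TRAV11 or TRAV11D with TRAJ18) or of mucosal-associated invariant T cells (TRAV1 with TRAJ33). With 3 counts taken as the bound for a count of 0, and not the exact interval, 0 of 176 cells allows a share of up to about 1.70%. TCR contigs hold no transcript of Cd4 or Cd8a, so the CD4 label rests on the sort.

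The CDR3 nucleotide sequences of the 13 expanded clonotypes are shown because they are the rearrangements that recurred. Each runs 5′ to 3′ from the conserved cysteine to the conserved phenylalanine or the residue in its place, and capitals mark the bases that match neither the end of the named V gene nor the J gene in GENCODE (GRCm38). These capitals hold the bases added at the joints and, in TRB, what is left of the D gene.
TRAV12D-3/TRBV3 TRA (TRAJ13): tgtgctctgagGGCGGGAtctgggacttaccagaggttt
TRAV12D-3/TRBV3 TRB (TRBJ2-7): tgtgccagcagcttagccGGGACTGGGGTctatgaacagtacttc
TRAV12-2/TRBV23 TRA (TRAJ47): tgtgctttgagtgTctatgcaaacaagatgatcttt
TRAV12-2/TRBV23 TRB (TRBJ2-4): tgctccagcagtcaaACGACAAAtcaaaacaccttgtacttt
TRAV16N/TRBV15 TRA (TRAJ15): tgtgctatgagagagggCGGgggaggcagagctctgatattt
TRAV16N/TRBV15 TRB (TRBJ2-3): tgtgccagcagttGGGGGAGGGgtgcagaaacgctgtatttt
TRAV9-4/TRBV2 TRA (TRAJ31): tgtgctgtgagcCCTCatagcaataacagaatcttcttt
TRAV9-4/TRBV2 TRB (TRBJ2-7): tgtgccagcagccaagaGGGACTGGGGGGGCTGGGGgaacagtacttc
TRAV7D-3/TRBV3 TRA (TRAJ9): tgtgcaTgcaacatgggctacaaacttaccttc
TRAV7D-3/TRBV3 TRB (TRBJ2-5): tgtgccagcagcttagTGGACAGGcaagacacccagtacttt
TRAV9-2/TRBV20 TRA (TRAJ31): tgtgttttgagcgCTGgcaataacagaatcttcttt
TRAV9-2/TRBV20 TRB (TRBJ2-2): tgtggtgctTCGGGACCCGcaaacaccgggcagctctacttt
TRAV12D-2/TRBV3 TRA (TRAJ21): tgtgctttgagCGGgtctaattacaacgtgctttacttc
TRAV12D-2/TRBV3 TRB (TRBJ2-7): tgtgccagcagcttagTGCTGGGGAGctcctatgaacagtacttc
TRAV12D-3/TRBV13-2 TRA (TRAJ37): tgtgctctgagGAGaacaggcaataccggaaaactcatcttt
TRAV12D-3/TRBV13-2 TRB (TRBJ2-4): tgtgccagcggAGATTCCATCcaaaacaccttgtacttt
TRAV5-1/TRBV13-2 TRA (TRAJ7): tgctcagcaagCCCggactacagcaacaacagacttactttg
TRAV5-1/TRBV13-2 TRB (TRBJ1-6): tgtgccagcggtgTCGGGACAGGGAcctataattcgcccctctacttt
TRAV6-4/TRBV23 TRA (TRAJ23): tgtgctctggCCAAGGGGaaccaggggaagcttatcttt
TRAV6-4/TRBV23 TRB (TRBJ2-1): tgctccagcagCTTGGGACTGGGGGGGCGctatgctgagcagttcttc
TRAV9-1/TRBV19 TRA (TRAJ24): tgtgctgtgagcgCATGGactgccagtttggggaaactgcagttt
TRAV9-1/TRBV19 TRB (TRBJ1-1): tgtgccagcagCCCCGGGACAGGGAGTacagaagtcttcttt
TRAV9-1/TRBV5 TRA (TRAJ22): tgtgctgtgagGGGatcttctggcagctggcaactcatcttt
TRAV9-1/TRBV5 TRB (TRBJ2-5): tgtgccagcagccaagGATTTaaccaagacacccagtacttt
TRAV9-4/TRBV26 TRA (TRAJ31): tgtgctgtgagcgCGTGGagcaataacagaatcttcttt
TRAV9-4/TRBV26 TRB (TRBJ1-6): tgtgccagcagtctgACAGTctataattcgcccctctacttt

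The most frequent clonotype joined TRAV12D-3 (chr14:52929789-52930282) to TRAJ13 (chr14:54205741-54205797), and TRBV3 (chr6:41048290-41048828) to TRBJ2-7 (chr6:41543810-41543856), all on the plus strand of GRCm38. Between V and J, its TRB had 11 bases, of which 10 in a row are found in TRBD2. In the TRAV9-4/TRBV2 and TRAV6-4/TRBV23 clonotypes the D stretch was longer, at 14 bases of TRBD2. The TRAV12-2/TRBV23 clonotype instead had 8 middle bases in TRB, with no more than 4 in a row from a D gene, and a single middle base in TRA. The TRAV7D-3/TRBV3 clonotype likewise had 1 middle base in TRA. Over the 13 expanded clonotypes the TRA had 3.77 ± 2.05 middle bases (mean ± SD over clonotypes) and over the 125 1-cell clonotypes 3.75 ± 3.09. For TRB the values were 10.8 ± 4.43 and 10.5 ± 4.73 bases. The difference between classes was thus smaller than the spread within a class for both chains. A V gene copy or allele that differs from the GENCODE entry adds to the capitals of a chain.

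The J genes of TRB are grouped in the TRBJ1 and TRBJ2 clusters, each behind its own D gene. Expanded and 1-cell clonotypes used the TRBJ2 cluster in nearly the same share, 10 of 13 clonotypes or 76.9% (46.2 to 95%) against 96 of 125 or 76.8% (68.4 to 83.9%). Counted by cells, 45 of 51 expanded cells used TRBJ2, or 88.2% (76.1 to 95.6%). The clonotypes of 3 or more cells all used TRBJ2, 6 of 6, and the 3 expanded TRBJ1 clonotypes had 2 cells each. Among single genes, TRBJ1-6 was in 2 of 13 expanded clonotypes (TRAV5-1/TRBV13-2 and TRAV9-4/TRBV26) and in 1 of 125 1-cell clonotypes, 15.4% (1.92 to 45.4%) against 0.800% (0.0203 to 4.38%). TRBJ2-4 was in 2 of 13 against 6 of 125, and the intervals of both genes overlapped between classes. The most used J gene of both classes was TRBJ2-7, with 3 expanded clonotypes (23.1%) and 30 1-cell clonotypes (24%).

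**Figure D1:**
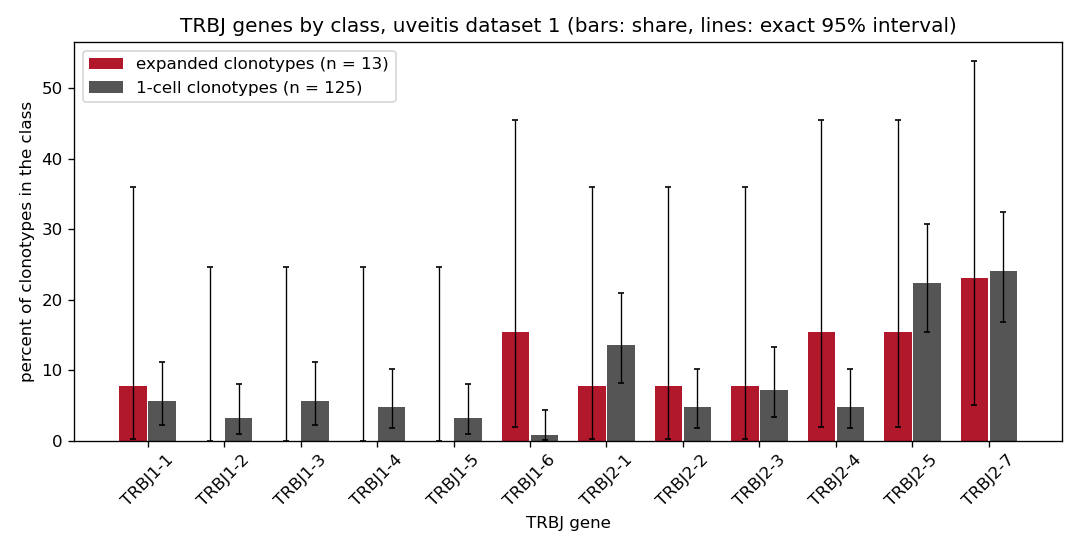
Share of clonotypes (y axis, percent) that used each TRBJ gene (x axis) among 13 expanded (red) and 125 1-cell clonotypes (grey) of uveitis dataset 1, with exact 95% intervals as lines. TRBJ2-7 stands at 23.1% and 24%, and TRBJ1-6 at 15.4% and 0.800%.

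On the TRA side, TRAJ31 was the J gene that expanded clonotypes shared most often. It was in 3 of 13 expanded clonotypes, or 23.1% (5.04 to 53.8%), and in 12 of 125 1-cell clonotypes, or 9.60% (5.06 to 16.2%). All 3 joined TRAJ31 to a V gene of the TRAV9 family, a pairing found in 7 of the 125 1-cell clonotypes (5.60%, 2.28 to 11.2%). By place in the locus, 1 expanded clonotype used a J gene between TRAJ61 and TRAJ42, 7 used TRAJ41 to TRAJ22, and 5 used TRAJ21 to TRAJ2. The 1-cell clonotypes split 25, 61 and 39 over the same stretches. The share of the last stretch, which lies nearest to the constant gene, was 38.5% (13.9 to 68.4%) among expanded and 31.2% (23.2 to 40.1%) among 1-cell clonotypes.

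The V gene differences between classes were smaller by clonotypes than by cells for TRBV3 and TRAV12D-3. TRBV3 was in 17 of 51 expanded cells, or 33.3% (20.8 to 47.9%), but in 3 of 13 expanded clonotypes, or 23.1% (5.04 to 53.8%), against 13 of 125 1-cell clonotypes, or 10.4% (5.65 to 17.1%). TRAV12D-3 was in 14 of 51 expanded cells (27.5%), 12 of them from the most frequent clonotype, and in 2 of 13 expanded against 8 of 125 1-cell clonotypes. TRBV23 was in 2 of 13 expanded clonotypes and 1 of 125 1-cell clonotypes, and that 1-cell clonotype carried the very TRB of the TRAV12-2/TRBV23 clonotype. TRBV13-2, the single TRBV gene most frequent among 1-cell clonotypes (21 of 125, 16.8%, 10.7 to 24.5%), was in 2 of 13 expanded clonotypes (15.4%, 1.92 to 45.4%). The TRAV9 and TRAV12 families together gave 9 of 13 expanded clonotypes, 5 from TRAV9 and 4 from TRAV12. The families gave 29 (23.2%, 16.1 to 31.6%) and 17 (13.6%, 8.13 to 20.9%) of the 125 1-cell clonotypes. The 13 expanded clonotypes had 13 different pairs of V genes, and 5 of these pairs were also used by a 1-cell clonotype.

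The CDR3 of TRB was slightly longer and that of TRA slightly shorter in expanded clonotypes, by less than the spread within a class. The CDR3β had 14.5 ± 0.967 residues (SD, range 13 to 16) in expanded and 14.2 ± 1.40 (range 9 to 17) in 1-cell clonotypes, a difference of 0.39 residues. The CDR3α had 13.2 ± 1.07 residues (range 11 to 15) and 13.4 ± 1.58 (range 5 to 16), a difference of -0.24. The 1-cell CDR3α of 6 residues, TRAV3-3 joined to TRAJ44, was listed with threonine at its end and not the conserved phenylalanine. Whether such very short CDR3α were listed whole was not tested, and they enter these means and SDs. The median was the same in both classes, 14 residues for TRB and 13 for TRA. A CDR3β of 14 residues was in 7 of 13 expanded clonotypes, against 33 of 125 1-cell clonotypes. A CDR3β of 12 residues or shorter was in no expanded clonotype and in 10 of the 125 1-cell clonotypes.

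**Figure D2:**
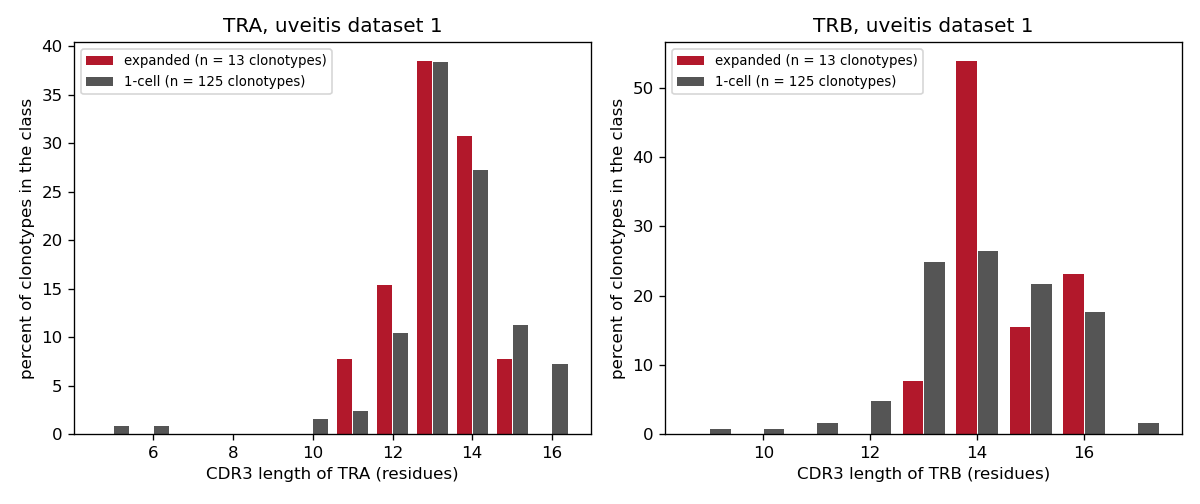
Distribution of CDR3 length (x axis, residues) for TRA on the left and TRB on the right, as percent of the 13 expanded (red) and 125 1-cell clonotypes (grey). Both classes peak at 13 residues for TRA and at 14 for TRB. The shortest CDR3s as listed, of 5 residues for TRA and 9 for TRB, are in 1-cell clonotypes, and whether they are whole was not tested.

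The residues of the CDR3 were compared in its middle, without the first 4 and last 4 residues, which V and J genes mostly fix. With clonotypes defined by both chains, acidic residues (aspartate and glutamate) made up a smaller share in the TRB of expanded clonotypes, with 6 of 85 middle residues against 105 of 769, or 7.06% against 13.7%. At least 1 acidic residue was in 5 of 13 expanded clonotypes, or 38.5% (13.9 to 68.4%), and in 84 of 125 1-cell clonotypes, or 67.2% (58.2 to 75.3%). The intervals overlapped, and the order depended on how clonotypes were defined. Grouped by the CDR3β nucleotides alone, a grouping chosen after the data were seen, it turned to 18 of 28 expanded, or 64.3% (44.1 to 81.4%), against 46 of 79 1-cell clonotypes, or 58.2% (46.6 to 69.2%). Residues whose codon held a middle base and residues coded by V or J alone gave the same order, 3 of 13 against 48 of 125 clonotypes for the former and 3 of 13 against 50 of 125 for the latter. In the other libraries only the former kept this order, at 8.33% against 29.2% of clonotypes in uveitis dataset 2 and 14.3% against 40.8% without uveitis, while residues coded by V or J alone stood at 27.8% against 25.5% and 42.9% against 35.6%. Aromatic residues were in the TRB middle of 7 of 13 expanded clonotypes (53.8%, 25.1 to 80.8%) and 52 of 125 1-cell clonotypes (41.6%, 32.9 to 50.8%). In the TRA middle, acidic residues were in 15.4% of expanded and 15.2% of 1-cell clonotypes, and glycine in 69.2% and 69.6%.

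The same comparison was made in the other libraries, uveitis dataset 2 with 36 expanded and 106 1-cell clonotypes, and the library without uveitis with 21 and 390. The share of clonotypes with an acidic residue in the CDR3β middle was lower among expanded clonotypes in all 3 libraries, by 28.7 percentage points in dataset 1, 10.1 in dataset 2 and 12.7 without uveitis. By CDR3β nucleotides alone the differences were 6.06, -9.96 and -11.1 points, so dataset 1 changed direction. TRAJ31 was higher among expanded clonotypes in all 3, with differences of 13.5, 12.8 and 9.67 points. The TRAV9 family was higher by 15.3, 12.5 and 24.1 points and the TRAV12 family by 17.2, 8.12 and 14.6 points. The mean CDR3β was longer by 0.39, 0.75 and 0.26 residues, and the mean CDR3α differed by -0.24, -0.15 and -1.12. The last value includes expanded CDR3α listed with as few as 5 residues (SD 2.60), whose completeness was not tested. TRBV3 did not keep its direction, at 12.7, -6.76 and -0.22 points. Of 27 such measures, 13 had 1 direction in all 3 libraries. Among these, the mean ratio of TRB to TRA UMIs over cells took the other direction by clonotype medians. Random signs alone would give a measure 1 direction with a chance of 0.25. The measures are not independent of each other, so their count gives no test. An exact sign-flip permutation test over 3 libraries (two-sided) cannot give a p below 0.25, which these 13 measures had (Benjamini-Hochberg adjusted p = 0.519 over the 27).

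Cells of expanded clonotypes had a higher median TRB count than cells of 1-cell clonotypes, in part through the most frequent clonotype. The kept TRB contig had a median of 16 UMIs per cell (range 2 to 42) in the 51 expanded cells and 11 (range 1 to 47) in the 125 1-cell clonotypes. At least 20 TRB UMIs were counted in 18 of 51 expanded cells, or 35.3% (22.4 to 49.9%), and in 14 of 125 others, or 11.2% (6.26 to 18.1%). Of these 18 cells, 8 were among the 12 cells of the TRAV12D-3/TRBV3 clonotype, and cells of 1 clonotype are not independent. Without that clonotype 10 of 39 expanded cells remained, or 25.6% (13.0 to 42.1%), an interval that overlapped that of the 1-cell clonotypes, and the difference in median TRB UMIs went from 5 to 3. For TRA the medians were 6 (range 1 to 25) and 5 (range 1 to 40) UMIs. The kept TRA rested on 1 UMI in 1 of 51 expanded cells (1.96%, 0.0496 to 10.4%) and in 15 of 125 1-cell clonotypes (12%, 6.87 to 19.0%). The other libraries did not show this gap, at 7.34% against 8.49% in dataset 2 and 6.25% against 3.08% without uveitis. In dataset 2 the mean TRB count also stood higher in expanded cells, by 3.42 UMIs against 5.88 in dataset 1, and without uveitis it differed by -0.925.

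**Figure D3:**
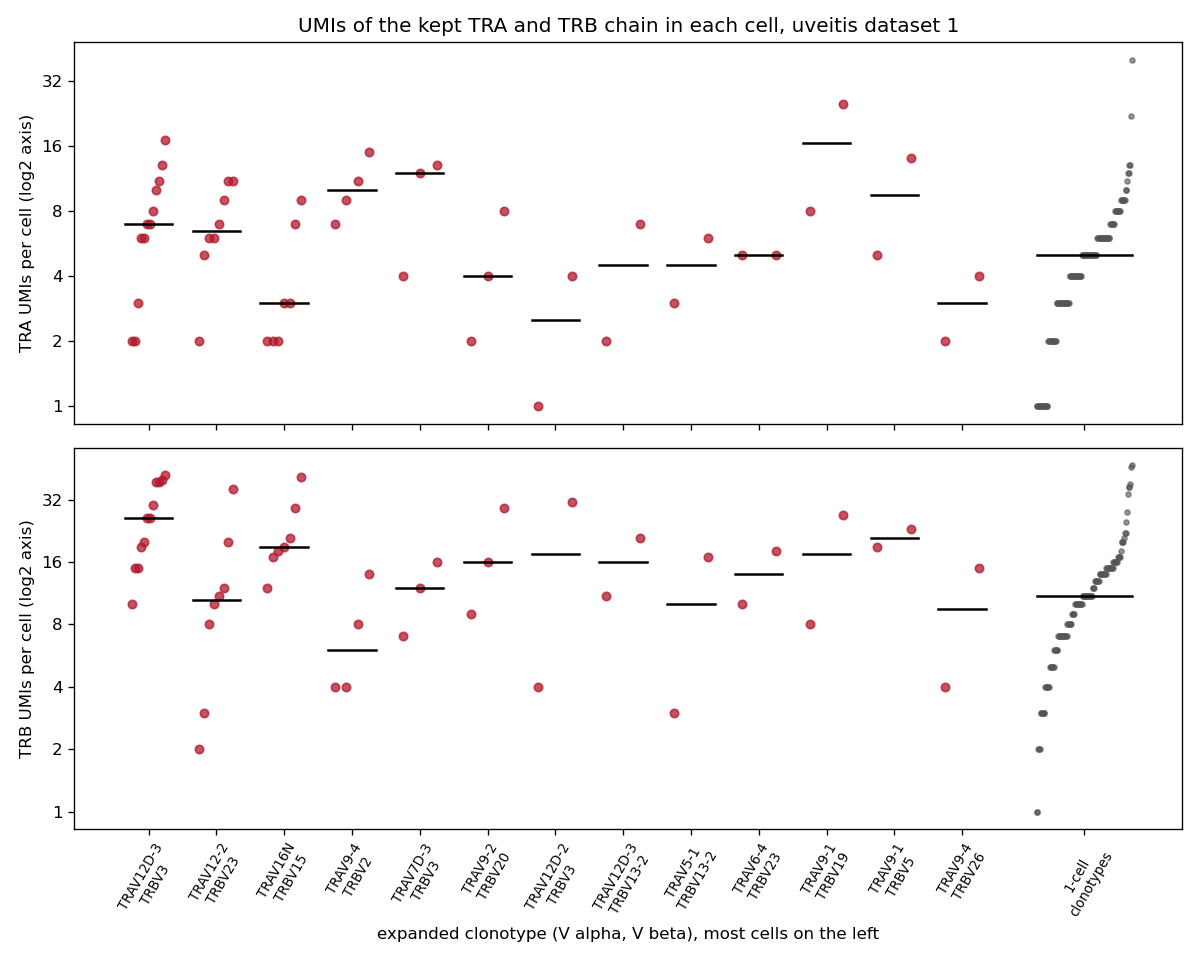
UMIs of the kept TRA (upper panel) and TRB (lower panel) in each cell on log2 axes, for the 13 expanded clonotypes (red, 1 point per cell, most cells on the left) and the 125 1-cell clonotypes (grey), with medians as black lines. TRB medians run from 6 UMIs in the TRAV9-4/TRBV2 clonotype to 26 in the TRAV12D-3/TRBV3 clonotype, and the 1-cell clonotypes have medians of 5 for TRA and 11 for TRB.

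The median counts of the chains differed among the 4 largest clonotypes, with overlapping ranges. They had few cells each, and in 1-cell clonotypes TRB exceeded TRA in 99 of 125 cells (79.2%). In the TRAV12D-3/TRBV3 clonotype, TRA had 2 to 17 UMIs (median 7) and TRB 10 to 42 (median 26), and TRB exceeded TRA in 12 of 12 cells. In the TRAV16N/TRBV15 clonotype, TRA was scarce at 2 to 9 UMIs (median 3), while TRB had 12 to 41 (median 19) and exceeded TRA in 7 of 7 cells. The TRAV12-2/TRBV23 clonotype had TRA at 2 to 11 (median 6.5) and TRB at 2 to 36 (median 10.5). Its TRB median was below those of both these clonotypes, and TRB exceeded TRA in 6 of 8 cells. The TRAV9-4/TRBV2 clonotype had the reverse balance. Its 4 cells had 7, 9, 11 and 15 TRA UMIs and 8, 4, 4 and 14 TRB UMIs, so that TRB exceeded TRA in 1 of 4 cells. Over all cells the median ratio of TRB to TRA was 2.73 in the expanded class and 2.25 in the 1-cell class. The direction of the mean ratio depended on the unit, at 3.52 against 3.39 over cells and 3.13 against 3.39 over clonotype medians. In all 3 libraries the mean ratio was higher in the expanded class by cells and lower by clonotype medians. Counted by clonotype medians, expanded clonotypes had a median of 5 TRA UMIs, the same as 1-cell clonotypes, and 16 TRB UMIs.

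Neither class held the 36 barcodes without a productive pair. Of these, 25 held a productive TRB and no TRA, and 10 held a TRA and no TRB. The TRB was that of an expanded clonotype in 9 of the 25. It was the TRAV16N/TRBV15 clonotype's in 5 barcodes (5 to 23 UMIs), next to that clonotype's 7 paired cells, and that of TRAV12-2/TRBV23 and TRAV12D-3/TRBV3 in 2 barcodes each. None of the 10 TRA chains without a partner belonged to an expanded clonotype. Among the 3 largest clonotypes, TRAV16N/TRBV15 had the lowest TRA median, 3 UMIs, and its TRB was most often found alone. Smaller clonotypes differed from this. TRAV12D-2/TRBV3 and TRAV9-4/TRBV26, with 2 cells each, had TRA medians of 2.5 and 3 UMIs, and their TRB was in no barcode without TRA. The part of TRA detection in the class sizes was not tested.

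A T cell can rearrange TRA on both chromosomes, so a second TRA, productive or not, is a further mark of common descent that the clonotype rule did not use. A further productive TRA was in 4 of 51 expanded cells, or 7.84% (2.18 to 18.9%), and in 15 of 125 1-cell clonotypes, or 12% (6.87 to 19.0%). With every cell thinned to 10 UMIs of TRA and TRB, which left out 2 expanded and 10 other cells, the expected shares were 6.98% and 10.5%. A further productive TRB was in 1 expanded cell (1.96%) and 9 1-cell clonotypes (7.20%). A non-productive TRA with V and J was in 12 expanded cells (23.5%, 12.8 to 37.5%) and 23 1-cell clonotypes (18.4%, 12 to 26.3%). The intervals of the classes overlapped for each of these kinds. Grouped by CDR3β nucleotides alone, the order for further productive TRA turned, to 12 of 97 cells (12.4%) in expanded and 7 of 79 (8.86%) in 1-cell clonotypes.

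Several second chains recurred from cell to cell within expanded clonotypes. All 3 cells of the TRAV7D-3/TRBV3 clonotype carried the same further productive TRA, TRAV13D-3 joined to TRAJ16, on 3 to 5 UMIs. Non-productive TRA contigs with the same J gene recurred as well. The TRAV12D-3/TRBV3 clonotype had a TRAJ12 contig in 4 of 12 cells, listed under TRAV13-1 or TRAV13D-2. The TRAV12-2/TRBV23 clonotype had TRAV6-7-DV9 with TRAJ58 in 2 of 8 cells, the TRAV9-4/TRBV2 clonotype TRAV10 with TRAJ45 in 2 of 4, and the TRAV9-2/TRBV20 clonotype TRAV12-2 with TRAJ27 in 2 of 3. Those for which a CDR3 was listed identically in more than 1 cell are shown, with capitals as above.
TRAV12-2/TRBV23, not productive TRAV6-7-DV9/TRAJ58 in 2 cells: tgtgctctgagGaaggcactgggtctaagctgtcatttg
TRAV12D-3/TRBV3, not productive TRAV13D-2/TRAJ12 in 2 cells: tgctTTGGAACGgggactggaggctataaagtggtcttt
TRAV7D-3/TRBV3, productive TRAV13D-3/TRAJ16 in 3 cells: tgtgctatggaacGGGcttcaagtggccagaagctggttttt

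Cells of the same clonotype that both had a non-productive TRA shared its J gene in 9 of 9 pairs, against 30 of 586 pairs from different clonotypes (5.12%). For further productive TRA the counts were 3 of 3 and 2 of 168 pairs (1.19%). The pairs overlap in cells and give no test. TRB contigs with a J gene and no V gene were found in 26 of 51 expanded cells (51.0%, 36.6 to 65.2%) and in 61 of 125 1-cell clonotypes (48.8%, 39.8 to 57.9%). Pairs of cells of 1 clonotype shared the J gene of such a contig in 35 of 38 cases, against 861 of 3703 (23.3%) across clonotypes. The 3 pairs that differed were in the TRAV12-2/TRBV23, TRAV5-1/TRBV13-2 and TRAV9-1/TRBV5 clonotypes, and a further productive chain was seen in only 1 cell of TRAV16N/TRBV15 (TRB) and of TRAV5-1/TRBV13-2 (TRA). The TRAV16N/TRBV15 clonotype had one with TRBJ2-7 in 5 of 7 cells and the TRAV9-2/TRBV20 clonotype one with TRBJ2-4 in 3 of 3, in both a J gene other than that of the productive TRB. In the TRAV12D-3/TRBV3 clonotype, 7 of 12 cells had one with TRBJ2-7, the J gene of its productive TRB. Pairs within this clonotype made up most of the 35 that agreed. Whether its contigs without V were parts of the productive TRB was not tested. Such contigs were listed for 3 of 218 expanded cells and no 1-cell clonotype of dataset 2, so the libraries differed in what was listed.

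**Figure D4:**
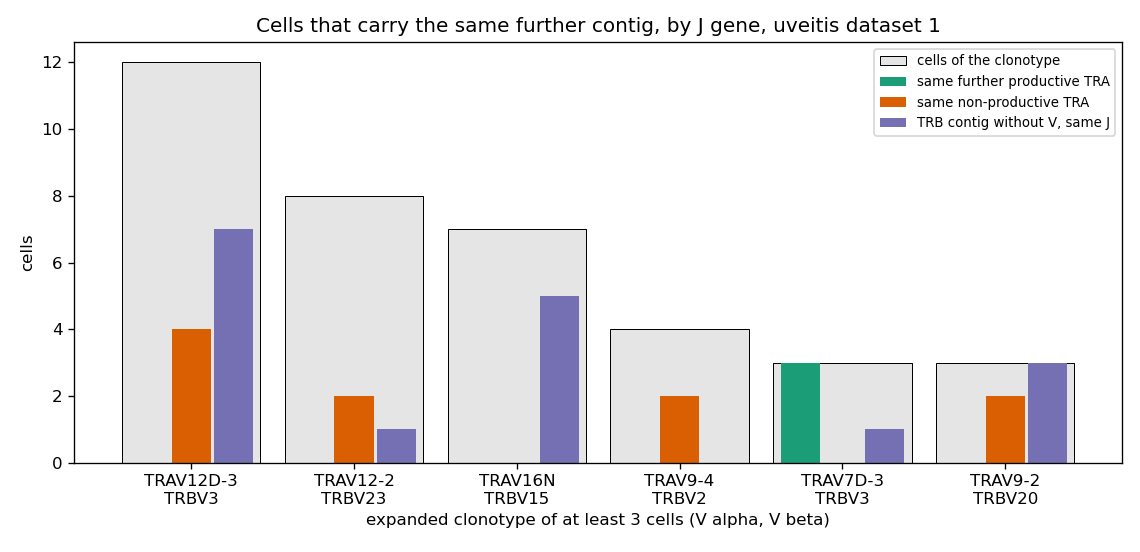
Cells (y axis) of the 6 expanded clonotypes with at least 3 cells (grey bars), and how many carried the same further productive TRA (green), the same non-productive TRA (orange) or a TRB contig without a V gene and with the same J gene (purple), each judged by J gene, so that a bar of 1 means no recurrence. The further productive TRA is in 3 of 3 cells of the TRAV7D-3/TRBV3 clonotype. A non-productive TRA with TRAJ12 is in 4 cells of TRAV12D-3/TRBV3, in 2 of them with the same listed CDR3.

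Of the 125 1-cell clonotypes, 19 had the CDR3 nucleotides of 1 chain of an expanded clonotype, or 15.2% (9.41 to 22.7%). The shared chain was TRA in 9, TRB in 9, and both in 1, whose TRA was that of TRAV9-4/TRBV2 and whose TRB was that of TRAV9-1/TRBV5. Chains of 8 of the 13 expanded clonotypes recurred this way. No 1-cell clonotype came within 1 base of an expanded clonotype in one CDR3 while matching it in the other. Among the 9 that shared TRA, that TRA had 1 to 5 UMIs (median 3) and rested on 1 UMI in 4, while their TRB had a median of 14 UMIs. Among the 9 that shared TRB, that TRB had 3 to 46 UMIs (median 13) and their TRA 3 to 8 (median 6), so that no chain of these rested on 1 UMI. In the 106 1-cell clonotypes that shared neither chain with an expanded one, TRA had a median of 5 UMIs and TRB 11.

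The partners of the chains shared with the 3 largest clonotypes are shown, since these set the 1-cell clonotypes apart from them. The TRA of TRAV12D-3/TRBV3 was found with 4 other TRB, under the names TRAV12-2, TRAV12D-2, TRAV12D-3 and TRAV12N-1, all of the TRAV12 family. It rested on 3, 1, 3 and 1 UMIs in these cells, and whether each V gene name was right was not tested. Each line names the expanded clonotype whose chain was shared, then the V and J genes of the partner chain, whose CDR3 follows.
with TRA of TRAV12D-3/TRBV3, TRBV2/TRBJ1-3: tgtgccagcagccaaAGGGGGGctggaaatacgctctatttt
with TRA of TRAV12D-3/TRBV3, TRBV3/TRBJ2-2: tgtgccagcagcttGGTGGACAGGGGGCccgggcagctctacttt
with TRA of TRAV12D-3/TRBV3, TRBV13-2/TRBJ2-7: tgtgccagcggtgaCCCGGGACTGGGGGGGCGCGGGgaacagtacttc
with TRA of TRAV12D-3/TRBV3, TRBV13-1/TRBJ2-5: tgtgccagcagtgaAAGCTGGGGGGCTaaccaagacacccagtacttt
with TRB of TRAV12D-3/TRBV3, TRAV5-1/TRAJ22: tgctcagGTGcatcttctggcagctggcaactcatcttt
with TRB of TRAV12D-3/TRBV3, TRAV9-4/TRAJ31: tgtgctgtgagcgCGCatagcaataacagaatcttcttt
with TRA of TRAV12-2/TRBV23, TRBV13-2/TRBJ1-3: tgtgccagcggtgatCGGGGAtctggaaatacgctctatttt
with TRB of TRAV12-2/TRBV23, TRAV12-2/TRAJ23: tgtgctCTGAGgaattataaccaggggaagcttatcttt
with TRA of TRAV16N/TRBV15, TRBV15/TRBJ1-1: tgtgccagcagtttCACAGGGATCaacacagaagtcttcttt
with TRA of TRAV16N/TRBV15, TRBV15/TRBJ2-7: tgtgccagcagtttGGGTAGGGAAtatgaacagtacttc
with TRB of TRAV16N/TRBV15, TRAV9-2/TRAJ33: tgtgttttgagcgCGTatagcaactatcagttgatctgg

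The TRB of the TRAV12-2/TRBV23 clonotype was found once more, on 46 UMIs, with another TRAV12-2 chain on 8 UMIs. The TRB of TRAV16N/TRBV15 was found on 37 UMIs with a TRAV9-2 chain on 8. The TRB of TRAV12D-3/TRBV3 was found on 16 and 13 UMIs with TRAV5-1 and TRAV9-4 chains on 6 UMIs each, listed under TRBV5 in the latter cell. These TRB counts were within the range of the expanded clonotypes that carried the same chains or above it.

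1-cell clonotypes also shared chains with each other. The TRB CDR3 of 42 of the 125, or 33.6% (25.4 to 42.6%), was found in at least 1 other 1-cell clonotype, and the TRA CDR3 of 28, or 22.4% (15.4 to 30.7%). There were 18 such TRB sequences in 2 or 3 1-cell clonotypes each, each with more than 1 TRA CDR3, and 17 kept 1 V gene name. In all, 62 of 125 1-cell clonotypes (49.6%, 40.5 to 58.7%) had a chain seen in another clonotype of the library. The share was 24 of 106 in dataset 2 (22.6%, 15.1 to 31.8%) and 36 of 390 without uveitis (9.23%, 6.55 to 12.6%). The 3 intervals did not overlap, but clonotypes that share a chain are not independent, so these intervals are too narrow. Each library was also 1 pool, and the difference between libraries was not tested. Of the 62, 9 had their TRA on 1 UMI and 12 had a further productive chain, and of the other 63, 6 and 12 did.

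**Figure D5:**
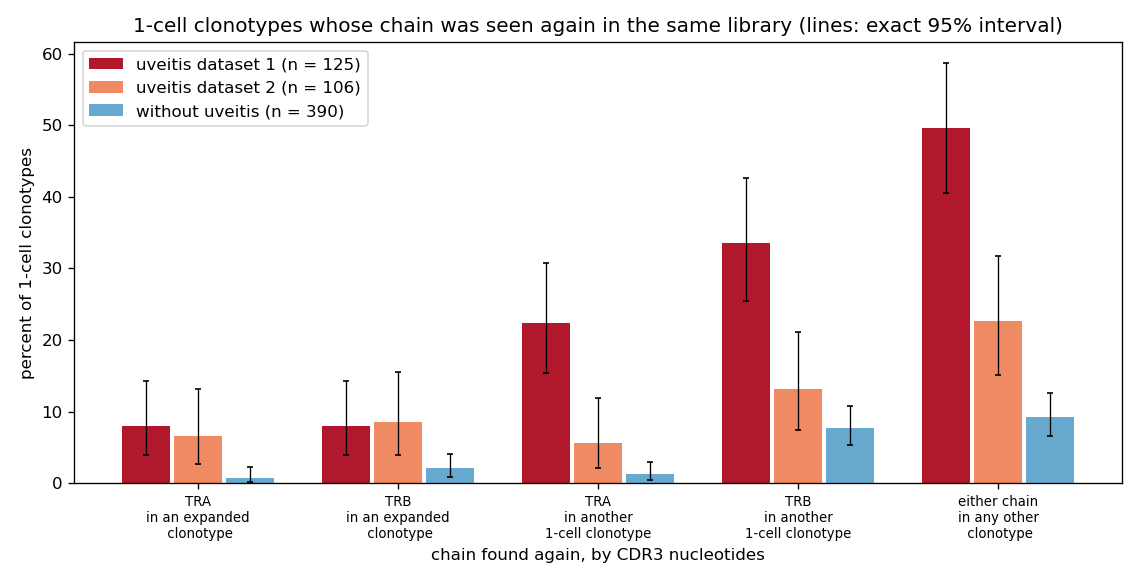
Share of 1-cell clonotypes (y axis, percent) with a TRA or TRB found again in the same library, by whether the other clonotype was expanded or 1-cell, in uveitis dataset 1 (red), uveitis dataset 2 (orange) and the library without uveitis (blue), with exact 95% intervals. For either chain in any other clonotype, the shares are 49.6%, 22.6% and 9.23%, and clonotypes that share a chain are not independent.

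The TRB sequences found in 3 1-cell clonotypes each are shown, because they recurred as often as the TRB of a 3-cell clonotype yet count as unexpanded.
TRBV3/TRBJ1-1: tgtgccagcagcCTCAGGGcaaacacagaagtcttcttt
TRBV19/TRBJ2-5: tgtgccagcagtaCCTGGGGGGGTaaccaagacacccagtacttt
TRBV13-2/TRBJ2-7: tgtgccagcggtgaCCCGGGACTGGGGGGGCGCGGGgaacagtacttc
TRBV13-2/TRBJ2-1: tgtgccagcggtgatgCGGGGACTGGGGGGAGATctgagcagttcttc
TRBV13-2/TRBJ1-4: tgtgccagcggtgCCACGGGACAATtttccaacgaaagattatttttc
TRBV20/TRBJ2-5: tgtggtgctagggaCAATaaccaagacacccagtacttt

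Each of these TRB had a different TRA in every cell, save that 2 of the 3 cells with the TRBV3/TRBJ1-1 chain had the same CDR3α nucleotides under TRAV9-1 and TRAV9-2. The UMIs of the TRBV13-2/TRBJ2-1 chain were 14, 15 and 37, those of the TRBV20 chain 7, 8 and 15, and those of the TRBV19 chain 7, 15 and 16. The TRBV13-2/TRBJ1-4 chain had 4, 11 and 47 UMIs and the TRBV3/TRBJ1-1 chain 10, 11 and 16. The TRBV13-2/TRBJ2-7 chain had 1, 7 and 14, so 1 of its cells rested on a single molecule. Grouped by the nucleotides of the CDR3β alone, as above, 97 of 176 cells of dataset 1 fell in groups of 2 or more, or 55.1% (47.4 to 62.6%), against 29.0% (22.4 to 36.3%) by both chains. The same change moved dataset 2 from 67.3% to 72.5% and the library without uveitis from 17.0% to 23.8%. Which mouse each cell came from and how far droplets with more than 1 cell contributed were not tested.

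Few chains of expanded clonotypes were found outside dataset 1. By nucleotides, 1 of 13 TRA (7.69%, 0.195 to 36%) and 1 of 13 TRB were also in dataset 2, against 3 of 125 TRA (2.40%, 0.498 to 6.85%) and 2 of 125 TRB of 1-cell clonotypes. The TRA of the 2-cell TRAV9-4/TRBV26 clonotype had its CDR3α amino acids in 60 cells of 7 clonotypes of dataset 2, in 59 of them with the same nucleotides. The TRB of the TRAV9-1/TRBV5 clonotype was in 2 cells of dataset 2 with the same nucleotides, where the CDR3α of both cells had the same amino acids as in dataset 1 and other nucleotides. The CDR3α amino acids of the TRAV9-2/TRBV20 clonotype were in 7 cells without uveitis, none of them with the same nucleotides. No chain of an expanded clonotype was found without uveitis by nucleotides (0 of 13 for each chain, upper bounds 24.7%), and 2 of 125 TRA of 1-cell clonotypes were.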

How the data were processed

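Per the methods, reads of the 10x 5′ V(D)J libraries were assembled with Cell Ranger (version 3) against its mouse reference (GRCm38). The deposited values are counts of reads and of UMIs per contig, not normalized, and every contig carried the pipeline's cell flag. Dataset 1 held 212 barcodes, 676 contigs and 5302 UMIs, dataset 2 held 7439 UMIs, and the library without uveitis 21408. Dataset 1 shared no barcode with either other library. Cells with a productive TRA and a productive TRB were kept, each with the contig of highest UMI count per chain (ties by reads). No doublets were removed. A clonotype shared V gene, J gene and CDR3 nucleotides of both chains. The mRNA libraries were not used here.

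Middle bases were those left after the longest match to the V and J genes of GENCODE vM21, which held all 159 genes used. Shares have 95% Clopper-Pearson intervals, which rest on the number of cells or clonotypes. Differences over the 3 libraries were tested with an exact sign-flip permutation test. Thinned shares are expected values without replacement. On simulated contigs, 7 of 7 known values were recovered. The alternatives were a minimum of 2 UMIs, only cells with 1 TRA and 1 TRB, other clonotype definitions, an expanded class from 3 cells, leaving out the most frequent clonotype or the 1-cell clonotypes that shared a chain with an expanded one, another unit of counting, merged V gene copies, and thinning. Clonotypes named are the 13 expanded ones, and genes are theirs and the most used of each class. The 1-cell clonotypes and chains named beside these, and the TRB families, were chosen after their values were seen. The members and lists were chosen with earlier results of these data known. Python 3.11.15, pandas 2.3.3, numpy 2.4.6 and scipy 1.17.1 were used.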

Additional observations from a re-analysis of the deposited data

Results flagged for a closer look

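The difference between expanded and 1-cell clonotypes had 1 direction in both uveitis datasets and the other direction without uveitis for 7 of 27 measures. The 7 were picked by this pattern. Random signs alone would give it to a measure with a chance of 0.25, and 7 of 27 is near that share. The measures are also not independent of each other. Each condition had 1 or 2 libraries, so the difference between conditions was not tested. Values are expanded minus 1-cell, in the order uveitis dataset 1, uveitis dataset 2 and without uveitis. The mean TRB UMIs differed by 5.88, 3.42 and -0.925 per cell, and the mean TRA UMIs by 1.67, 0.274 and -3.15. The mean number of middle bases differed by 0.0172, 0.901 and -0.729 for TRA and by 0.318, 1.69 and -0.263 for TRB. The TRA value of dataset 1 was small beside the SDs within its classes, 2.05 and 3.09 bases. The share of clonotypes with an aromatic residue in the CDR3α middle differed by 6.65, 3.62 and -2.12 percentage points, and with a basic residue there by 6.77, 4.30 and -12.5 points. The share with TRBV13-2 differed by -1.42, -1.15 and 7.51 points.

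Dataset 1 also listed 17 contigs of immunoglobulin, TRG or TRD genes, which no comparison used and which the other libraries did not list. They came from 11 barcodes, and 8 were IGH and 5 TRG contigs. None was productive, 16 rested on 1 UMI and 1 on 11 UMIs, and 3 were in cells with a paired TCR.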

How the results depend on the processing

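Of 275 values under alternative settings, differences between classes included, 238 stayed within the limits set for them, 30 moved and 7 reversed direction. The 238 include values that could not move, such as gene shares of 1-cell clonotypes where only the expanded class was changed. Grouped by V gene and CDR3 amino acids, every value equalled the one reported. Differences are expanded minus 1-cell. Some limits were wide. The TRBV3 difference, 12.7 points as reported, stayed within them at 4.74 with at least 2 UMIs per contig and 22.9 from 3 cells. The count of 238 is thus no measure of stability. The difference in the TRBJ2 share, 0.123 percentage points as reported, took either sign. It was -2.98 with at least 2 UMIs per contig, -6.62 by CDR3 nucleotides of both chains, -0.0611 with Cell Ranger's own clonotypes, -1.80 without the most frequent clonotype and -0.949 by CDR3β nucleotides alone. It was 7.31 in cells with 1 TRA and 1 TRB, 23.2 from 3 cells and 11.4 counted by cells. The TRAJ31 difference, 13.5 points, stayed positive, at 16.7 with at least 2 UMIs, 17.5 in cells with 1 TRA and 1 TRB, 11.7 by CDR3 nucleotides, 23.7 from 3 cells, 15.4 without the most frequent clonotype, 14.6 without the 1-cell clonotypes that shared a chain with an expanded one, 8.05 by cells and 4.16 by CDR3β alone. The TRAV12D-3 difference, 8.98 points, was 12.3 in cells with 1 TRA and 1 TRB, 1.93 without the most frequent clonotype and 21.1 by cells. With Cell Ranger's own clonotypes the difference in mean CDR3 length was 0.11 residues for TRB and -0.34 for TRA, and that in median TRA UMIs was 1.5. Counted from 3 cells there were 6 expanded clonotypes, of which 100% used TRBJ2, the CDR3α difference was -0.89 residues and the TRA difference 2 UMIs. The CDR3α difference was -0.37 without the chain-sharing 1-cell clonotypes and -0.39 by cells. By clonotype medians the TRA difference was 0 UMIs. Grouped by CDR3β nucleotides alone, chosen after the data were seen and with the TRA of 1 cell per group, 55.1% of cells were in 28 expanded clonotypes beside 79 1-cell ones. The acidic CDR3β difference then reversed from -28.7 to 6.06 points (64.3% against 58.2%), and that in further productive TRA from -4.16 to 3.51 points (12.4% against 8.86%). The CDR3α difference was -0.0791 residues and the TRA difference 2 UMIs. The cause of these changes was not tested. Second chains were not recomputed in cells with 1 TRA and 1 TRB, which have none by construction. No paired analysis was possible because the conditions share only 1 replicate number and each pool was 1 library. With 13 expanded clonotypes, a share of 1 clonotype is 7.69%, and genes seen in 1 or 2 of them cannot be ranked.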
